A study of Komagataella pastoris with 6 samples.

Results

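The genes described here are 3 transcription factors that control methanol use in the yeast *Komagataella pastoris* (*Pichia pastoris*): MXR1 (gene-PAS_chr4_0487), MIT1 (gene-PAS_chr3_0836) and TRM1 (gene-PAS_chr4_0203). They were taken by locus tag from a table of 5030 genes, whose identifiers all carry the prefix gene-, left out below. That table describes MXR1 as a zinc-finger factor that responds to the carbon source, and gives no product name for MIT1 or TRM1, nor for AOX2 below. Those names therefore rest on the tags alone. Baker's yeast uses the names MXR1 and TRM1 for unrelated enzymes, which are not meant here.

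Messenger RNA was sequenced from 3 cultures of a strain that overexpresses Ilv3 (HTX33_ILV3, the ILV3 strain) and from 3 cultures of its control, HTX-33, labelled wild type. The medium was a basal salt one with methanol at 0.5% as inducer, and cells were taken in exponential phase; the series design calls the cultures biological replicates. No culture without methanol is among the samples, so no value below measures induction by methanol. The promoter that drives the added ILV3 copy, its place in the genome and the number of clones are not stated in the labels. Levels are in TPM, taken here to be a length-scaled share of the messenger RNA in a library. The deposited values are named FPKM, but all genes of a library add up to 1000000, a sum that does not show length scaling. Comparisons of level between genes, such as ranks and numbers of transcripts per transcript, rest on that scaling. A smaller amount of one transcript and a larger amount of others cannot be told apart on the TPM scale.

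In this yeast, methanol is oxidised by the alcohol oxidases in the peroxisome, and the resulting formaldehyde is either joined to a sugar phosphate by the dihydroxyacetone synthases or burned to carbon dioxide. Mxr1 is the long-known master activator of these genes and of peroxin genes, and is related to the baker's yeast factor Adr1. Mit1 and Trm1 (also called Prm1) are zinc-cluster activators that bind the AOX1 promoter, and Mit1 is itself made in response to methanol. The comparison here asks whether these regulators moved with the methanol genes in the strain with raised ILV3.

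The label of the ILV3 strain was checked first. ILV3 (PAS_chr1-4_0458), which encodes dihydroxyacid dehydratase, stood at 2564, 2680 and 2633 TPM in the ILV3 strain, against 88.0, 79.8 and 91.9 TPM in the control. The correlation across genes was 0.986 to 0.992 for pairs of libraries within a strain and 0.963 to 0.968 for pairs from both strains, where genes are not independent replicates. Each library was thus nearer to its own strain than to the other.

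MIT1 rose 1.59-fold in the ILV3 strain, MXR1 was slightly higher, and TRM1 did not pass the test. The differences between their changes were themselves larger than the spread between replicates, as given further on. The 3 transcripts also differed widely in abundance. In all 6 libraries MIT1 was the highest, MXR1 the second and TRM1 the lowest, with no overlap between the genes.

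MIT1 had 1464, 1508 and 1458 TPM in the ILV3 strain, against 875, 974 and 933 TPM in the control. Every ILV3 library lay above every control library by a wide margin, and the ILV3 libraries were closely grouped. The means were 1477 ± 27.6 TPM in the ILV3 strain and 927 ± 49.8 TPM in the control (SD, n = 3 each). The log2 fold change was 0.67 (95% interval 0.56 to 0.78, limma adjusted p = 5.33e-06), on the log2(TPM + 1) scale used for all changes below.

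MXR1 had 124, 123 and 116 TPM in the ILV3 strain, against 111, 105 and 113 TPM in the control. The strains did not overlap, but replicate 3 of the ILV3 strain lay only just above replicate 3 of the control. The means were 121 ± 4.49 TPM in the ILV3 strain and 110 ± 4.31 TPM in the control (SD, n = 3 each), a log2 fold change of 0.14 (95% interval 0.03 to 0.25, limma adjusted p = 0.0440). This call was weak. With the replicate number as a block its limma adjusted p was 0.102, without a mean-variance trend it was 0.0662, and it lay between 0.0566 and 0.135 when any 1 library other than ILV3 replicate 3 was dropped, the whole range of its alternatives being 0.00196 to 0.135.

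TRM1 had 47.3, 48.0 and 44.7 TPM in the ILV3 strain, against 47.6, 45.1 and 51.2 TPM in the control. The strains overlapped. The means were 46.7 ± 1.76 TPM in the ILV3 strain and 48.0 ± 3.09 TPM in the control (SD, n = 3 each). The log2 fold change was -0.04, with a 95% interval of -0.18 to 0.10 and a limma adjusted p of 0.637. That interval covers small changes in either direction, and leaves out a change as large as that of MIT1.

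These calls stand against a background in which many genes moved: of 5025 genes tested, 49.3% were called at an adjusted p under 0.05, 22.1% as higher and 27.2% as lower in the ILV3 strain. That balance depends on the scaling: with quantile normalization 1498 genes were called higher and 1275 lower, against 1113 and 1365 here, and without control replicate 2 the counts were 1060 and 1629. Values of the strains did not overlap in 57.2% of the genes, with the ILV3 strain higher in 26.8% and lower in 30.5%. A call of this kind is therefore common, and the size of the change says more. With its sign kept, the log2 fold change of MIT1 was above that of 97.2% of the tested genes. That of MXR1 was above 72.8% and that of TRM1 above 47.0%. In the authors' deposited table the log2 fold changes are 0.68 for MIT1 (p = 6.8e-33), 0.15 for MXR1 (p = 0.00105) and -0.03 for TRM1 (p = 0.606); whether those p-values are adjusted is not stated there.

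**Figure D1:**
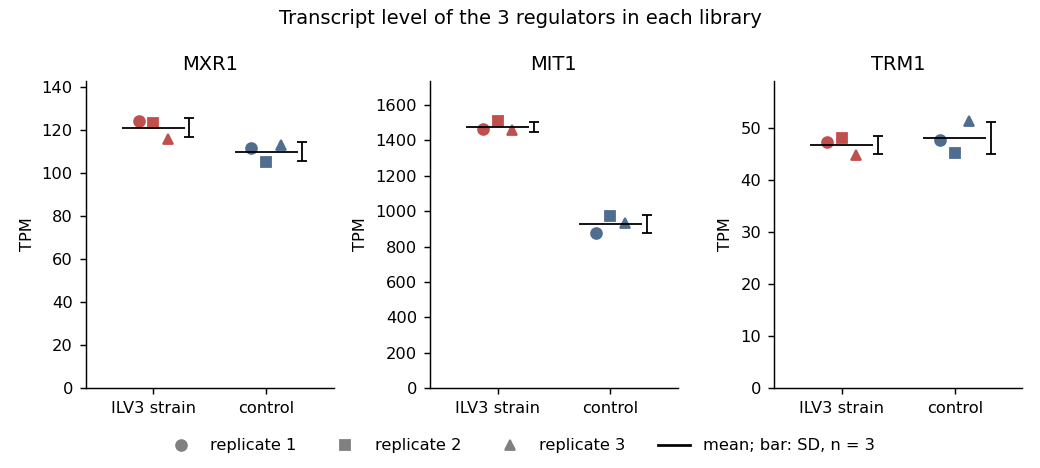
Level (TPM) of MXR1, MIT1 and TRM1 in each library of the ILV3 strain (red) and the control (blue); the symbol gives the replicate number, the line the mean and the bar the SD (n = 3). MIT1 lies between 1458 and 1508 TPM in the ILV3 strain and between 875 and 974 TPM in the control, while the TRM1 values of the strains overlap.

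Within a library, MIT1 was among the abundant messages. It was placed between the 126th and the 218th highest of 5025 genes. MXR1 ranked between 1147th and 1367th, and TRM1 between 2494th and 2623rd, close to the median gene of a library (46.2 to 51.4 TPM). Set beside 52 genes whose description calls them transcription factors or subunits of one, MIT1 was the highest of 55 in every library. MXR1 was 16th or 17th, and TRM1 between 27th and 30th. These ranks compare genes by values taken to be length-scaled.

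The promoters these factors are known for belong to the alcohol oxidase and dihydroxyacetone synthase genes. These genes were all called higher in the ILV3 strain, as were 22.1% of all tested genes. AOX1 (PAS_chr4_0821), the main alcohol oxidase, had 29090, 32526 and 29041 TPM in the ILV3 strain, against 22090, 20873 and 22096 TPM in the control. The strains were far apart, with replicate 2 the highest library of the ILV3 strain and the lowest of the control. The log2 fold change was 0.48 (95% interval 0.34 to 0.61, limma adjusted p = 0.0002). AOX2 (PAS_chr4_0152), the minor alcohol oxidase, had 2465, 2639 and 2521 TPM in the ILV3 strain, against 2115, 1634 and 1973 TPM in the control. Its control libraries were the more scattered, and its log2 fold change was 0.42 (95% interval 0.23 to 0.62, limma adjusted p = 0.00309).

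The synthases moved less. DAS1 (PAS_chr3_0832) had 7599, 8071 and 7762 TPM in the ILV3 strain, against 7013, 6580 and 7096 TPM in the control, a log2 fold change of 0.18 (limma adjusted p = 0.0133, and 0.239 with quantile normalization; alternatives ran from 0.00649 to 0.239). DAS2 (PAS_chr3_0834) had 10276, 10520 and 10239 TPM in the ILV3 strain, against 9613, 9051 and 9669 TPM in the control, a log2 fold change of 0.13 (limma adjusted p = 0.0401). Both genes separated the strains by narrow gaps. The DAS2 call was lost with the replicate block (limma adjusted p = 0.121), without a mean-variance trend (0.0560) and without any 1 of the 6 libraries (0.0560 to 0.105; range over all alternatives 0.000151 to 0.121). The oxidases, and likewise the synthases, have very similar sequences, so reads could be split within each pair, and the rule used for such reads is not stated in the labels.

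**Figure D2:**
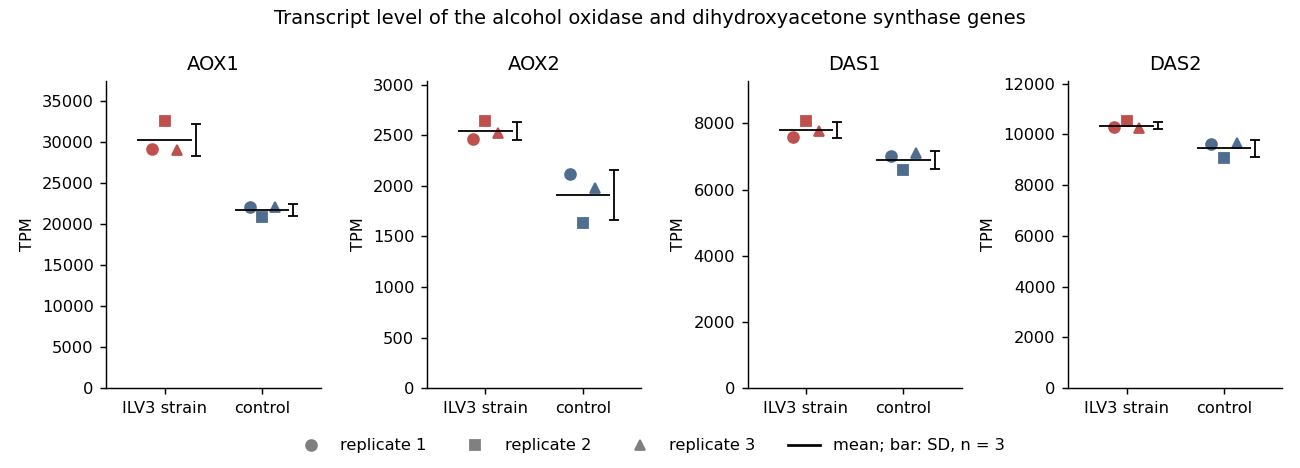
Level (TPM) of AOX1, AOX2, DAS1 and DAS2 in each library of the ILV3 strain (red) and the control (blue); symbols, lines and bars as for the regulators. Replicate 2 of the control (square) is the lowest control library for each of these genes, from 20873 TPM for AOX1 to 1634 TPM for AOX2.

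The order of the replicates within a strain differed between regulators. In control replicate 2, MIT1 had its highest control value (974 TPM), while MXR1 (105 TPM), TRM1 (45.1 TPM), AOX1, AOX2, DAS1 and DAS2 each had their lowest. In ILV3 replicate 2, by contrast, MIT1 (1508 TPM), TRM1 (48.0 TPM) and all 4 enzyme genes were at their highest for that strain. With 3 libraries a strain no correlation was computed, and the strains form separate clusters, so none was pooled over the 6 libraries.

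The regulators and enzyme genes had unequal log2 fold changes, so the amount of regulator message per enzyme message was compared between the strains. Ratios were formed within each library, and the change in a ratio was tested with limma on log2 ratios over all genes. Of 9 ratios, 8 passed and 1 did not. With the replicate block the call of MIT1 relative to AOX1 was lost as well (limma adjusted p = 0.116). Over all genes, 86.8% were called relative to AOX1, 63.1% relative to DAS1 plus DAS2, 61.0% relative to MXR1 and 47.7% relative to TRM1. In 7 of the 9 the strains did not overlap, and for these the exact two-sided permutation test over libraries gave p = 0.1, the smallest that 3 against 3 libraries allow. Such ratios are common: over all genes, the strains did not overlap in 86.0% of the ratios to AOX1, 68.1% of those to DAS1 plus DAS2, 66.1% of those to MXR1 and 57.1% of those to TRM1.

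Relative to AOX1, MXR1 and TRM1 were lower in the ILV3 strain. There were 4.26, 3.78 and 3.99 MXR1 transcripts per 1000 AOX1 transcripts in the ILV3 strain, against 5.04, 5.02 and 5.11 in the control. The control libraries were nearly alike, and all lay above the ILV3 libraries (log2 difference -0.34, 95% interval -0.48 to -0.20, limma adjusted p = 0.000449). For TRM1 there were 1.62, 1.48 and 1.54 transcripts per 1000 AOX1 transcripts in the ILV3 strain, against 2.16, 2.16 and 2.32 in the control (log2 difference -0.52, limma adjusted p = 2.53e-05). AOX1 had risen more than most genes. Relative to it 86.8% of all genes were called, and 84.4% of all genes were called lower, so this fall is shared with most of the transcriptome. With quantile normalization, which gives the top-ranked gene of every library the same value and so removes the rise of AOX1, the differences became 0.23 for MXR1 and 0.04 for TRM1.

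MIT1 went the other way. There were 50.3, 46.4 and 50.2 MIT1 transcripts per 1000 AOX1 transcripts in the ILV3 strain, against 39.6, 46.7 and 42.2 in the control. Replicate 2 of the control overlapped with the ILV3 strain. The log2 difference was 0.19 (95% interval 0.02 to 0.37, limma adjusted p = 0.0392; exact permutation p = 0.2), where 2.43% of all genes were called higher relative to AOX1. This call was lost with the replicate block (limma adjusted p = 0.116) and without any 1 library other than ILV3 replicate 2 or control replicate 2 (0.0969 to 0.196; range over all alternatives 2.02e-05 to 0.196). The low end of that range is from quantile normalization, where AOX1 is constant, so it tests the level of MIT1 and not the ratio.

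Relative to the dihydroxyacetone synthases the 3 regulators separated. There were 81.9, 81.1 and 81.0 MIT1 transcripts per 1000 transcripts of DAS1 and DAS2 together in the ILV3 strain, against 52.6, 62.3 and 55.6 in the control. The ILV3 libraries were almost equal, and the control libraries were lower and more scattered (log2 difference 0.52, 95% interval 0.37 to 0.67, limma adjusted p = 0.00024, where 63.1% of all genes were called, 12.0% as higher). For TRM1 there were 2.64, 2.58 and 2.48 in the ILV3 strain, against 2.86, 2.88 and 3.06 in the control (log2 difference -0.19, limma adjusted p = 0.00735, where 51.1% of all genes were called lower).

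MXR1 had nearly the same ratio to the synthases in both strains. There were 6.94, 6.62 and 6.43 MXR1 transcripts per 1000 of DAS1 and DAS2 in the ILV3 strain, against 6.70, 6.71 and 6.74 in the control. The ILV3 libraries lay on both sides of the tight control values. The log2 difference was -0.01, with a 95% interval of -0.11 to 0.08 and a limma adjusted p of 0.782.

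**Figure D3:**
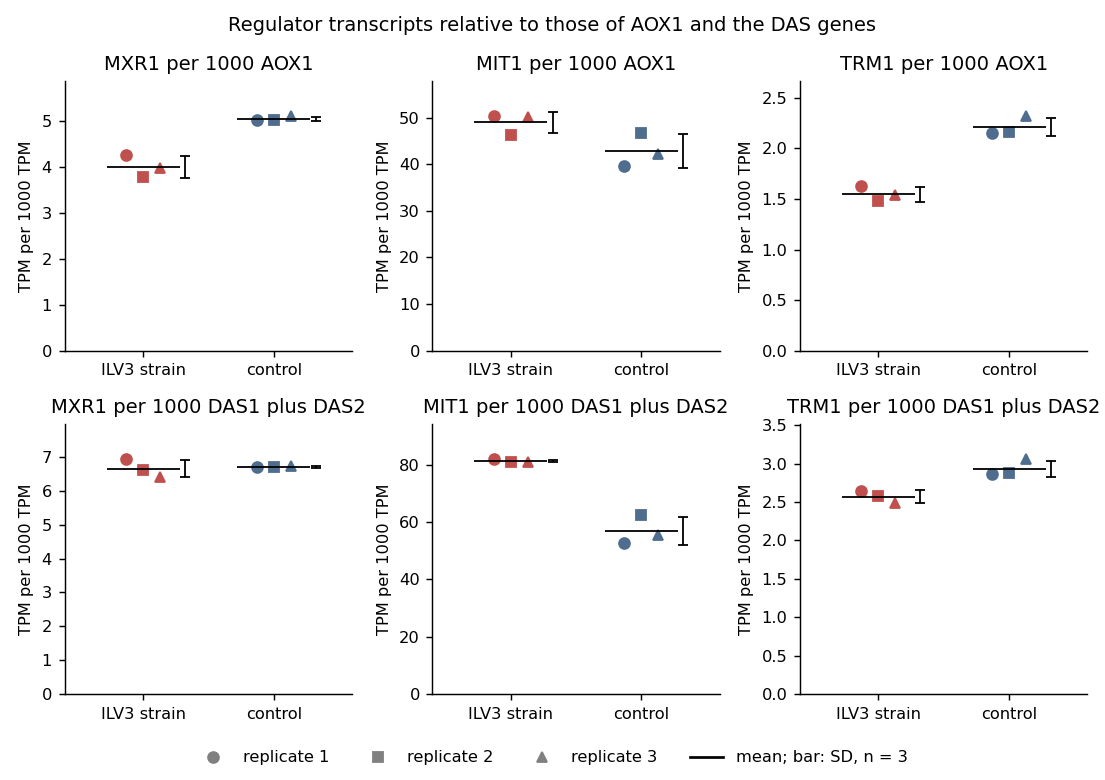
Regulator transcripts per 1000 transcripts of AOX1 (top row) or of DAS1 plus DAS2 (bottom row) in each library of the ILV3 strain (red) and the control (blue), from TPM; symbols, lines and bars as for the regulators. MIT1 per 1000 DAS transcripts lies between 81.0 and 81.9 in the ILV3 strain and between 52.6 and 62.3 in the control, while MXR1 per 1000 DAS transcripts overlaps between the strains.

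The balance among the regulators changed as well. There were 11.8, 12.3 and 12.6 MIT1 transcripts for each MXR1 transcript in the ILV3 strain, against 7.86, 9.29 and 8.26 in the control (log2 difference 0.53, 95% interval 0.37 to 0.70, limma adjusted p = 0.000359, where 61.0% of all genes were called relative to MXR1, 12.4% as higher). For each TRM1 transcript there were 31.0, 31.4 and 32.6 MIT1 transcripts in the ILV3 strain, against 18.4, 21.6 and 18.2 in the control (log2 difference 0.71, limma adjusted p = 0.00014, where 47.7% of all genes were called relative to TRM1, 24.3% as higher and 23.4% as lower). TRM1 fell relative to MXR1, to 0.381, 0.391 and 0.386 transcripts per MXR1 transcript in the ILV3 strain, against 0.428, 0.430 and 0.453 in the control (log2 difference -0.18, limma adjusted p = 0.00652, where 48.6% of all genes were called lower relative to MXR1). None of these 3 ratios overlapped between the strains, as was so for 66.1% of all genes relative to MXR1 and 57.1% relative to TRM1.

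The enzymes of the pathway did not all move with AOX1. Of 6 genes of methanol oxidation and dissimilation, 3 rose (AOX1, AOX2 and FDH1) and 2 fell, where 22.1% of all genes were called higher and 27.2% lower. Formate dehydrogenase FDH1, the last enzyme of dissimilation, had 13332, 13228 and 12865 TPM in the ILV3 strain, against 11485, 11754 and 11561 TPM in the control. Catalase CTA1, which removes the peroxide made by alcohol oxidase, fell to 3982, 4214 and 4007 TPM in the ILV3 strain, against 5688, 5131 and 5744 TPM in the control (log2 fold change -0.44). FLD1, the formaldehyde dehydrogenase, had a log2 fold change of -0.12 (limma adjusted p = 0.0378, 0.137 with the replicate block and 0.219 with median-ratio scaling; range 0.0117 to 0.219); the call was also lost without any 1 library other than control replicate 2. FGH1, the formylglutathione hydrolase, did not pass (3463 ± 86.3 TPM in the ILV3 strain and 3507 ± 126 TPM in the control).

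Of 11 measured genes listed for the xylulose monophosphate cycle, which rebuilds the sugar phosphate that takes up formaldehyde, 8 rose and 2 fell. Among all tested genes, 22.1% were called higher and 27.2% lower. The list includes a transketolase of the general pentose phosphate pathway, which is among the 2 that fell. Both transaldolases listed are described as enzymes of the non-oxidative pentose phosphate pathway, and the other gene that fell is among them. SHB17, the sedoheptulose bisphosphatase, named from its tag alone, had 4316, 4355 and 4658 TPM in the ILV3 strain, against 2302, 2523 and 2353 TPM in the control, and its log2 fold change of 0.89 was above that of MIT1. The aldolase FBA1-2 followed with 0.58, a pair of ribose-phosphate isomerases (PAS_chr4_0212 and PAS_chr4_0213) with 0.37 and 0.44, the transaldolase PAS_chr2-2_0338 with 0.33 and dihydroxyacetone kinase DAK1 with 0.22. The other transaldolase, PAS_chr2-2_0337, fell (log2 fold change -0.32), as did the transketolase of the general pentose phosphate pathway, PAS_chr1-4_0150 (-0.76). Fructose bisphosphatase FBP1 did not pass (1965 ± 51.3 TPM in the ILV3 strain and 1999 ± 51.9 TPM in the control). None of the 5030 genes carries the tag listed for the epimerase RPE1-2, so it was not analysed here.

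Over both lists the median log2 fold change was 0.18, against -0.02 over all tested genes. Across the 17 genes the values ran from -0.76, for the transketolase of the general pentose phosphate pathway, to 0.89. MIT1 (0.67) lay near the top of this range and MXR1 (0.14) and TRM1 (-0.04) within it. Of 13 peroxin genes, whose products build the organelle that holds the oxidases, 9 rose and 2 fell, with a median log2 fold change of 0.27. The shares over all tested genes were 22.1% higher and 27.2% lower.

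**Figure D4:**
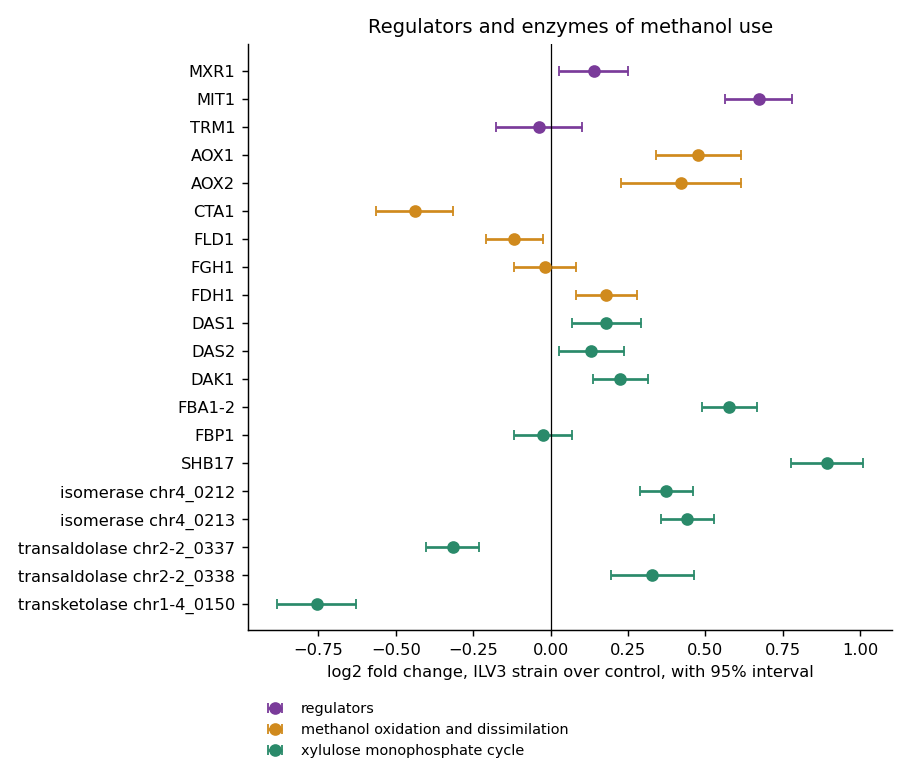
Log2 fold change of the ILV3 strain over the control with its 95% interval (limma) for the 3 regulators (purple), 6 genes of methanol oxidation and dissimilation (orange) and 11 genes listed for the xylulose monophosphate cycle (green). Values run from -0.76 for the transketolase to 0.89 for SHB17; the intervals of MXR1 and MIT1 lie above 0, and that of TRM1 spans it.

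Other genes of carbon source control were taken by description, and 12 of them were measured: the Snf1 kinase, which relieves glucose repression in baker's yeast, with its partners, subunits of the Hap complex that activates respiratory genes there, subunits of the chromatin remodeller SWI/SNF, a glucose sensor and a factor of glucose repression. Of these 12 genes, 0 rose and 8 fell (limma; also 0 higher at an unadjusted p under 0.05, and 2 higher with median-ratio scaling or quantile normalization). Over all tested genes 22.1% were called higher and 27.2% lower. The median log2 fold change was -0.22, against -0.02 over all tested genes. Of the 3 methanol regulators, MIT1 (0.67) and, by a weak call, MXR1 (0.14) were higher, and TRM1 (-0.04) did not pass.

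The catalytic subunit described as Snf1 (PAS_chr2-1_0519) had 30.7, 30.8 and 29.1 TPM in the ILV3 strain, against 37.8, 34.4 and 37.4 TPM in the control (log2 fold change -0.26). Its gamma subunit (PAS_chr2-1_0608) had 112 ± 4.85 TPM in the ILV3 strain and 132 ± 7.31 TPM in the control, its beta subunit (PAS_chr1-4_0498) 70.8 ± 1.82 and 84.5 ± 4.26 TPM, and the kinase acting on it (PAS_chr2-1_0639) 80.1 ± 2.39 and 101 ± 7.80 TPM (SD, n = 3 each). All 4 genes of this kinase system were lower in every ILV3 library than in any control library, as were 30.5% of all tested genes. The calls of these 4 genes held under each alternative.

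A Hap subunit (PAS_chr3_0638) fell to 63.2 ± 2.68 TPM in the ILV3 strain, against 87.9 ± 2.81 TPM in the control. The other Hap subunits, PAS_chr3_0766, PAS_chr4_0442 and PAS_chr4_0638, did not pass, with log2 fold changes of 0.10, 0.13 and 0.04. The first and second of them are the genes called higher under the other scalings, and PAS_chr4_0442 was also called without ILV3 replicate 3 (limma adjusted p = 0.0481). The catalytic SWI/SNF subunit (PAS_FragD_0018) fell to 30.6 ± 1.92 TPM in the ILV3 strain, against 42.4 ± 3.74 TPM in the control. A further SWI/SNF subunit (PAS_chr1-4_0309) and the factor of glucose repression (PAS_chr4_0334) fell by 0.21 and 0.22 on the log2 scale. The call of PAS_chr4_0334 was lost with quantile normalization (limma adjusted p = 0.0686) and without ILV3 replicate 1, control replicate 1 or control replicate 3 (0.0812, 0.0695 and 0.0778; range 0.00903 to 0.0812), and that of PAS_chr1-4_0309 without control replicate 3 (0.0621; range 0.00363 to 0.0621). The glucose sensor (PAS_chr1-1_0300) did not pass (97.6 ± 5.87 TPM in the ILV3 strain and 107 ± 1.31 TPM in the control); without ILV3 replicate 1 its limma adjusted p was 0.0394, against 0.0714 with all libraries.

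Among the 52 genes described as transcription factors, which include 5 of the genes just given, 7 rose, 20 fell and 25 did not pass, with a median log2 fold change of -0.12. For all tested genes the shares were 22.1% higher and 27.2% lower, and the median was -0.02. With quantile normalization 13 rose and 18 fell, and with the replicate block 5 rose and 17 fell. Ordered from the most positive log2 fold change to the most negative, MIT1 was 2nd of 55, MXR1 was 12th and TRM1 was 26th. The gene above MIT1 was a putative transcription factor (PAS_chr1-4_0516) with 890, 884 and 894 TPM in the ILV3 strain, against 529, 574 and 559 TPM in the control (log2 fold change 0.68). The other large rises were in a gene described only as a transcription factor (PAS_chr1-1_0016, 0.45) and a transcriptional activator (PAS_chr1-4_0339, 0.36).

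The largest falls in that list were in a factor required for Ty1 expression (PAS_chr3_0092), in an activator of nitrogen catabolite genes (PAS_chr4_0626) and in the heat shock factor (PAS_chr2-1_0026). Their log2 fold changes were -1.65, -0.75 and -0.64. The first had 72.9 ± 2.56 TPM in the ILV3 strain and 232 ± 11.8 TPM in the control (SD, n = 3 each).

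**Figure D5:**
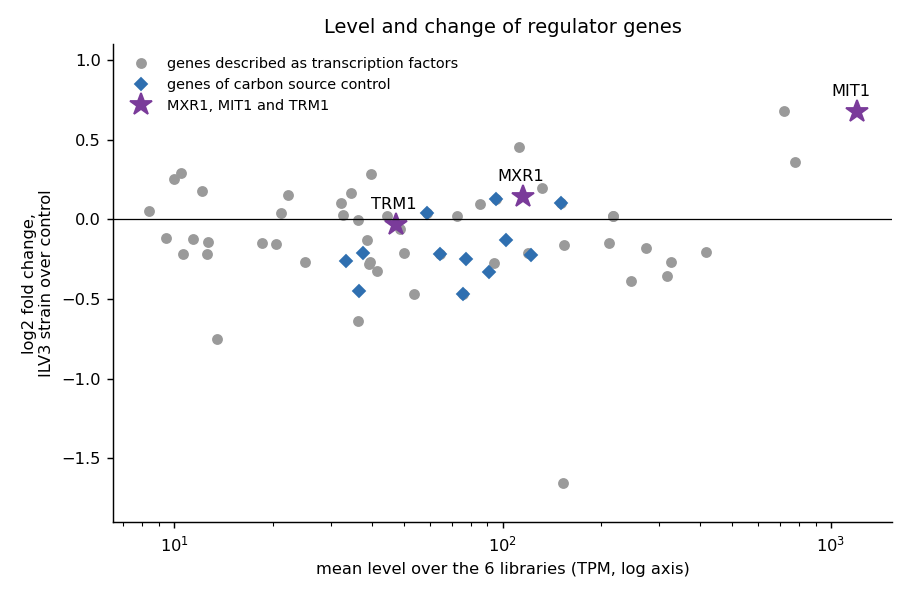
Log2 fold change of the ILV3 strain over the control against the mean level over the 6 libraries (TPM, log axis) for MXR1, MIT1 and TRM1 (stars), 12 genes of carbon source control (diamonds) and 52 genes described as transcription factors (circles; 5 genes are in both lists). MIT1 is the most abundant of them and lies at 0.67, while 8 of the diamonds were called lower.

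The profile of each regulator over the 6 libraries, centred on its own mean, was set beside those of 4771 other genes averaging 10 TPM or more. The measure of likeness was the root mean square difference on the log2 scale. Both strains enter it, so it mostly follows the change between them, and it is given with no test. For MIT1 the 5 nearest genes lay at 0.02 to 0.04. They were PAS_chr3_0249, which has no product name, the putative transcription factor PAS_chr1-4_0516, a mitochondrial matrix chaperone (PAS_chr2-1_0324), PAS_chr4_0589, also without a product name, and a phosphoinositide-binding protein of autophagy (PAS_chr3_0931). Within a difference of 0.05 there were 9 genes. AOX1 was the 193rd nearest gene to MIT1, at 0.13.

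For MXR1, whose profile is flatter, 256 genes lay within 0.05. The nearest were a DNA ligase of end joining (PAS_chr3_0732), PAS_chr1-4_0026, without a product name, subunit 5 of the stalk of the mitochondrial ATP synthase (PAS_chr1-1_0191), PAS_chr3_0871, also unnamed, and the beta subunit of the same synthase (PAS_chr2-2_0165). DAS2 was the 19th nearest to MXR1, at 0.03, DAS1 the 165th and AOX1 the 3071st. For TRM1, 276 genes lay within 0.05, among them a proteasome activator subunit (PAS_chr3_0776), the glutamine tRNA synthetase (PAS_chr3_0285), a coatomer protein (PAS_chr1-1_0181), the oligosaccharyltransferase subunit STT3 (PAS_chr1-4_0685) and PAS_chr1-3_0188, which is uncharacterized. These 5 were the nearest. Genes with little change were many, and both counts are well above the 9 found for MIT1.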

How the data were processed

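Stranded, ligation-based mRNA libraries were sequenced; HISAT2, TopHat2 and DESeq2 are named in the submitters' processing notes, without versions, order, genome build or annotation. The deposited values are named FPKM by the authors, but each library sums to 1000000, so they were treated as deposited TPM; length scaling cannot be read from that sum. They keep no depth, so no counting interval or count test was possible. The authors' deposited log2 fold change and p-value were only quoted. None of the 5030 IDs matched the reference gene table (0 matches), and no symbol was taken from it.

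The 5025 genes averaging 1 TPM or more were fitted as log2(TPM + 1) with limma 3.58.1 (R 4.3.3, mean-variance trend, two-sided) and called at a Benjamini-Hochberg adjusted p under 0.05 over all genes. Ratios were fitted the same way after subtracting the log2 value of the denominator in each library. The level fit was also run on simulated data without pairing, in which few genes changed, each by more than MXR1 did. That run does not bear on calls of small changes or of ratios. Alternatives were pseudocounts of 0.1 and 5, other filters, median-ratio and quantile scaling, no trend, robust empirical Bayes, a replicate block, each library left out, and exchanged denominators (added after the data were seen).

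Deviations of same-numbered libraries from their strain means correlated across genes with r of 0.223, 0.126 and 0.209, each above the limit of 0.1. For differently numbered libraries r ran from -0.220 to 0.041. The labels do not say what same-numbered cultures share. A replicate block was therefore fitted as an alternative. All other calls, p-values and counts, and the permutation tests, leave this pairing out. Blocked values stand beside the named genes and ratios whose call they change.

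The members, lists and tests were chosen with earlier results of these data known. Named genes were the members, AOX1, AOX2, DAS1 and DAS2, the pathway and carbon source lists, the 3 highest and 3 lowest called factors averaging 10 TPM or more, and the 5 nearest profiles.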

Additional observations from a re-analysis of the deposited data

How the results depend on the processing

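Over 16 results and 16 alternatives, 218 of 245 values kept their direction and their side of the threshold, and 8 of the 16 results did so throughout: the levels of MIT1, AOX1 and AOX2, and MIT1 and TRM1 relative to the DAS genes and to MXR1, and MIT1 relative to TRM1. AOX1 has no value under quantile normalization, where it is constant. That scaling turned the log2 differences of TRM1 (0.042), MXR1 relative to AOX1 (0.23), TRM1 relative to AOX1 (0.042) and MXR1 relative to the DAS genes (0.027), and took the call of DAS1 (0.093). The calls of MXR1 (0.14, adjusted p = 0.0662) and DAS2 (0.13, 0.0560) were lost without a mean-variance trend. With the replicate block the calls of MXR1 (0.14, adjusted p = 0.102), DAS2 (0.13, 0.121) and MIT1 relative to AOX1 (0.19, 0.116) were lost, and no other call of the 16 results. Apart from AOX1 being constant under quantile normalization, the cause was not tested. With 1 library left out, the log2 differences ranged from 0.11 to 0.17 for MXR1, from 0.10 to 0.15 for DAS2, from 0.14 to 0.26 for MIT1 relative to AOX1, from -0.081 to 0.0094 for TRM1 and from -0.043 to 0.011 for MXR1 relative to the DAS genes. Called genes numbered 2120 to 2773, against 2478 as reported, and 2211 with the replicate block (983 higher, 1228 lower). The median log2 fold change of all genes moved from -0.05 to 0.02 over the alternatives.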

Other observations

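Genes whose locus tags are next to those of the regulators were looked up after the values had been seen, and they are given as values only, since genome positions were not used here. The tags of DAS1, DAS2 and MIT1 lie within a few numbers of each other on one chromosome (PAS_chr3_0832, PAS_chr3_0834 and PAS_chr3_0836), with log2 fold changes of 0.18, 0.13 and 0.67. Beside MIT1, PAS_chr3_0837 (no product name) had 1844 ± 98.4 TPM in the ILV3 strain and 1803 ± 66.5 TPM in the control, and PAS_chr3_0838 had 96.4 ± 4.06 and 93.7 ± 4.37 TPM. Neither passed limma's test, and the strains overlapped in both. Beside TRM1, PAS_chr4_0202, a zinc-finger transcription factor, had 46.8, 47.0 and 45.4 TPM in the ILV3 strain, against 56.6, 50.3 and 55.1 TPM in the control (log2 fold change -0.21, limma adjusted p = 0.0133, and 0.0578 without control replicate 1; range 0.00249 to 0.0578). The tag before that one, PAS_chr4_0201, an RNA helicase, had a log2 fold change of -0.51. On the other side of TRM1, PAS_chr4_0204 had 125 ± 1.91 TPM in the ILV3 strain and 91.6 ± 2.42 TPM in the control (log2 fold change 0.45), and PAS_chr4_0205 did not pass (-0.16). Beside MXR1, a mitochondrial phosphate carrier (PAS_chr4_0488) had 374 ± 14.6 TPM in the ILV3 strain and 295 ± 13.4 TPM in the control (log2 fold change 0.34), PAS_chr4_0489 had a log2 fold change of 0.28, and PAS_chr4_0486 did not pass (26.4 ± 0.239 TPM in the ILV3 strain and 27.5 ± 1.32 TPM in the control).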
